A study of Rattus norvegicus with 7 samples.

Results

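The epidermal growth factor (EGF) family of the rat meibomian gland is described here through 10 transcripts, chosen by gene symbol: the 7 ligands Epgn, Areg, Hbegf, Ereg, Tgfa, Btc and Egf, and the 3 receptors Egfr, Erbb2 and Erbb3. All 10 were found among the 17246 genes of the count table, and all 10 passed the filter on low counts. RNA sequencing was done on dissected meibomian glands, the lipid-secreting glands of the eyelid, from female wild-type Sprague-Dawley rats aged 3 months. The 4 control libraries came from untreated rats and the 3 UVB libraries from rats whose shaved upper lids received ultraviolet B light at 300 mJ/cm2, in sessions of 5 min on each of 5 days. Whether the controls were shaved, and the interval from the last exposure to dissection, are not given in the sources used here. The columns name the group of a library but not its number, so each library carries a letter (control a, b, c and d; UVB a, b and c) that pairs nothing, and values are given in letter order. The labels do not say that each library is a separate animal, so p-values measure the spread between these libraries, which may in part be technical.

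EGF family ligands are made as membrane-anchored precursors, and metalloproteases of the ADAM group release the active factor. Amphiregulin (Areg), epigen (Epgn), transforming growth factor alpha (Tgfa) and EGF itself (Egf) bind the receptor EGFR. Heparin-binding EGF-like growth factor (Hbegf), betacellulin (Btc) and epiregulin (Ereg) bind both EGFR and ERBB4. ERBB2 has no known ligand of its own and serves as partner of the others, and ERBB3 binds neuregulins and has a weak kinase. In skin and its glands, EGFR signalling is known for driving keratinocyte growth and migration, and sebaceous glands enlarge in mice that overexpress epigen.

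Library totals ran from 20680237 to 28784941 counts, and every pair of libraries within a group differed by more than sampling noise (chi-square per degree of freedom at least 10.9 over 9 pairs). All 8 markers of meibocytes, the lipid-making cells of the gland, had at least 2144 counts in every library, and their summed level was 43227 to 52464 TPM (a level corrected for transcript length and library size, as deposited) in controls and 39834 to 46461 TPM after UVB. The tissue is a mixture, and in such bulk samples fewer cells of a type and less RNA per cell cannot be told apart.

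Of the 10 transcripts, 2 passed the threshold between UVB and control glands in edgeR's quasi-likelihood test (adjusted p under 0.05 over all 13709 genes tested): Epgn was higher and Erbb3 was lower. Of all tested genes, 6.30% passed as higher and 6.74% as lower, beside 1 of the 10 in each direction. The median log2 fold change of the 10 was -0.25, against -0.0058 over all genes tested, and 3 of the 10 lay above 0. Groups did not overlap for 5 of the 10, with Epgn above every control and Btc, Egf, Erbb2 and Erbb3 below. Of all tested genes, 12.8% had every UVB library above every control and 13.8% had every one below. These counts over 10 genes describe the family and show nothing particular to it.

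**Figure D1:**
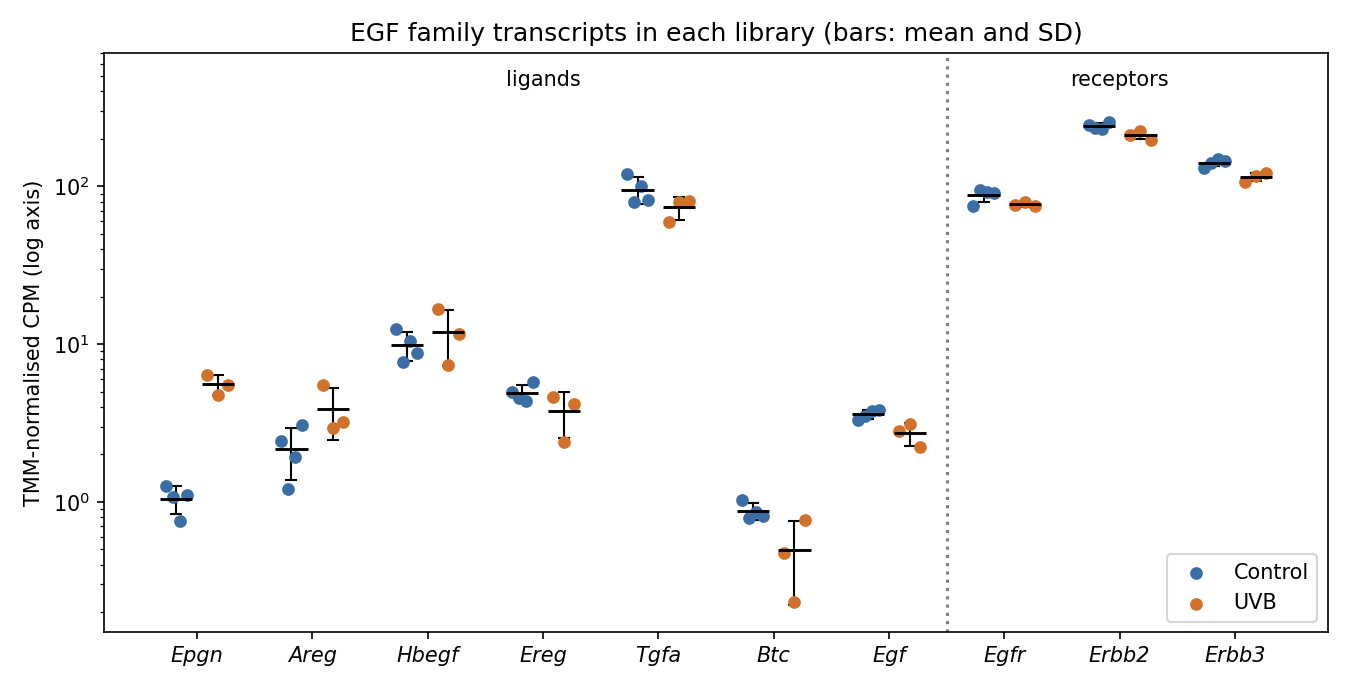
TMM-normalised CPM (counts scaled to library size, log axis) of the 10 EGF family transcripts in each of the 4 control (blue) and 3 UVB (orange) libraries; black lines give the mean and SD of a group. Epgn lies between 0.759 and 1.26 CPM in controls and between 4.76 and 6.40 CPM after UVB, the widest gap between groups on the plot, while the groups of Areg, Hbegf, Ereg, Tgfa and Egfr overlap.

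Because 4 of the 7 ligand genes are neighbours on rat chromosome 14, the sequence around the starts of 3 of them is shown, to set the ligand that rose beside cluster members that did not pass. The sequences come from RefSeq (assembly GRCr8) and are taken to run from 250 bases before to 50 bases after the start. That shape was the most frequent one against the RefSeq gene starts, at 57.8% of windows. Positions given below assume it. Such a window was at hand for 8 of the 10 genes; Ereg and Erbb3 had none. Capitals mark matches on either strand to the cyclic AMP response element letters TGACGTCA or to the TATA letters TATAAA. Each sequence is written in the direction of transcription. Epgn lies at chr14:17368951-17369250 on the minus strand, Areg at chr14:17265592-17265891 on the minus strand and Btc at chr14:16992418-16992717 on the plus strand.
Epgn: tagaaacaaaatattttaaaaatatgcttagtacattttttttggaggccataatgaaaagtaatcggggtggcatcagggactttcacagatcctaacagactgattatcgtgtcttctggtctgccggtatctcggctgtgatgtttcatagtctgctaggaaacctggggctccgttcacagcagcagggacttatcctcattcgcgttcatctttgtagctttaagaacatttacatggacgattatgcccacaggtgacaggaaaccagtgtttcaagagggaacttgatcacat
Areg: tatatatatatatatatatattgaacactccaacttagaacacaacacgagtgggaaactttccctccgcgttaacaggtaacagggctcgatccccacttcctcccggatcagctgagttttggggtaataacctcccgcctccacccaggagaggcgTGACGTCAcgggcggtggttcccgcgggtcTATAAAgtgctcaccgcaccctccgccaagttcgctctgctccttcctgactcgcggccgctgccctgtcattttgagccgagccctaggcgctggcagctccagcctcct
Btc: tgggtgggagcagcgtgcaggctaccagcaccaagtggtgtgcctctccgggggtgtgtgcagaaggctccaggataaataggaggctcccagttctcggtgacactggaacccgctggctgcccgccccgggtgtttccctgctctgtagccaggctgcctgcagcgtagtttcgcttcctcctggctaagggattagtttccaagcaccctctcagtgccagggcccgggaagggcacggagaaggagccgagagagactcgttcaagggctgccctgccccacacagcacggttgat
The Areg window holds TGACGTCA 91 bases before the start and TATAAA 61 bases before it. Of 33469 rat promoter windows of this length, 1.83% hold the first and 14.2% the second. Among the 8 windows, that of Areg was the one with a match to either, and none of the 8 holds the AP-1 letters TGANTCA, which 7.33% of all windows hold. The windows also differ in base composition: G and C make up 42.3% of that of Epgn, 56.0% of that of Areg and 62.7% of that of Btc, against a median of 51.7% over all windows. These matches describe the letters in the window and show no binding.

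Epgn (NCBI gene 289515), which encodes epigen, had the lowest mean TPM of the 10 transcripts in control glands, in a range that overlapped that of Egf. It had 27, 23, 22 and 26 counts in the controls and 135, 123 and 143 counts in the UVB libraries. As CPM the controls measured 1.26, 1.07, 0.759 and 1.11 and the UVB libraries 6.40, 4.76 and 5.51. Every UVB library therefore lay far above every control, with no overlap. The mean rose from 1.05 CPM (n = 4, SD 0.211) to 5.56 CPM (n = 3, SD 0.820), which is a log2 fold change of 2.41 (edgeR adjusted p = 0.000950, SE 0.22). In all 19 alternative fits Epgn passed, with log2 fold changes from 1.67 to 2.51, the lowest on the log2(TPM + 1) scale, where the pseudocount shrinks the change of a scarce transcript.

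Areg (NCBI gene 29183), which encodes amphiregulin, an autocrine growth factor of keratinocytes, had 2.43, 1.21, 1.93 and 3.08 CPM in the controls and 5.50, 2.94 and 3.20 CPM in the UVB libraries. Control d lay above UVB b, so the groups overlapped by that library. The means were 2.16 CPM (n = 4, SD 0.787) and 3.88 CPM (n = 3, SD 1.41), and the log2 fold change of 0.83 (SE 0.33) did not pass (edgeR adjusted p = 0.125). Without UVB a it was 0.50 (edgeR adjusted p = 0.354), and it did not pass in any of its 19 alternatives.

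Hbegf (NCBI gene 25433), whose product is a wound-induced ligand of skin, measured 12.4, 7.70, 10.5 and 8.80 CPM in the controls and 16.6, 7.39 and 11.6 CPM in the UVB libraries. UVB a held the highest value of the 7 libraries and UVB b the lowest. The log2 fold change of 0.26 (edgeR adjusted p = 0.550, SE 0.27) became -0.053 without UVB a. For Hbegf, the spread among the UVB libraries (SD 4.63 CPM, n = 3) exceeded the difference between the means of 9.85 and 11.9 CPM.

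Tgfa (NCBI gene 24827), which encodes an autocrine ligand of epithelia, had the highest TPM of the 7 ligands in every library. It measured 119.6, 79.7, 100.4 and 81.8 CPM in the controls and 59.8, 80.1 and 80.6 CPM in the UVB libraries. UVB a was the lowest of all, whereas UVB b and c lay near controls b and d. The log2 fold change was -0.38 (edgeR adjusted p = 0.172, SE 0.16), and it was -0.25 both without UVB a and without control a.

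Ereg (NCBI gene 59325), which encodes epiregulin, measured 4.99, 4.53, 4.35 and 5.77 CPM in the controls and 4.65, 2.40 and 4.20 CPM in the UVB libraries. UVB b alone stood well below the rest. Its log2 fold change of -0.39 (edgeR adjusted p = 0.290, SE 0.23) was -0.15 without UVB b.

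Btc (NCBI gene 64022), which encodes betacellulin, was near the limit of this depth, with 17 to 25 counts in a control and 10, 6 and 20 counts in the UVB libraries. In CPM the controls ran from 0.793 to 1.03 and the UVB libraries from 0.232 to 0.771, without overlap, but on the TPM scale UVB c at 1.61 lay inside the control range of 1.48 to 2.12. The log2 fold change was -0.82 (edgeR adjusted p = 0.196, SE 0.39), -0.46 without UVB b and -1.32 without UVB c.

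Egf (NCBI gene 25313) measured 3.31, 3.50, 3.79 and 3.80 CPM in the controls and 2.80, 3.14 and 2.23 CPM in the UVB libraries. All 3 UVB libraries were below all controls. The log2 fold change of -0.41 (SE 0.18) did not pass (edgeR adjusted p = 0.167), and it was -0.28 without UVB c.

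The 3 receptors were all lower in the mean of the UVB libraries, by amounts smaller than those of most ligands. Erbb3 (NCBI gene 29496) measured 131, 141, 149 and 145 CPM in the controls and 107, 117 and 121 CPM in the UVB libraries. The groups were apart, by the gap between control a and UVB c. It fell from 142 CPM (n = 4, SD 7.64) to 115 CPM (n = 3, SD 7.17), which is a log2 fold change of -0.30 (edgeR adjusted p = 0.0225, SE 0.068). This call rested on most libraries being present: leaving out control c gave an adjusted p of 0.0654, control d 0.0644, UVB a 0.0661 and UVB b 0.0534, with log2 fold changes from -0.33 to -0.25 over the 7 fits that each omitted a library.

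Erbb2 (NCBI gene 24337) was the most abundant of the 10, at 245, 235, 230.4 and 254 CPM in the controls and 213, 225 and 198 CPM in the UVB libraries. Every UVB library was below every control, yet the log2 fold change of -0.18 (SE 0.066) did not pass (edgeR adjusted p = 0.0955). Its counts were not whole in any of the 7 libraries, and in GRCr8 it overlaps the gene LOC120095358, so its level is uncertain. Egfr (NCBI gene 24329) measured 75.5, 94.3, 92.3 and 91.2 CPM in the controls and 76.2, 79.5 and 74.8 CPM in the UVB libraries. Control a stood apart from the other controls, inside the UVB range. The log2 fold change was -0.20 (edgeR adjusted p = 0.134, SE 0.082), and without control a it was -0.27 and passed (edgeR adjusted p = 0.0192).

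**Figure D2:**
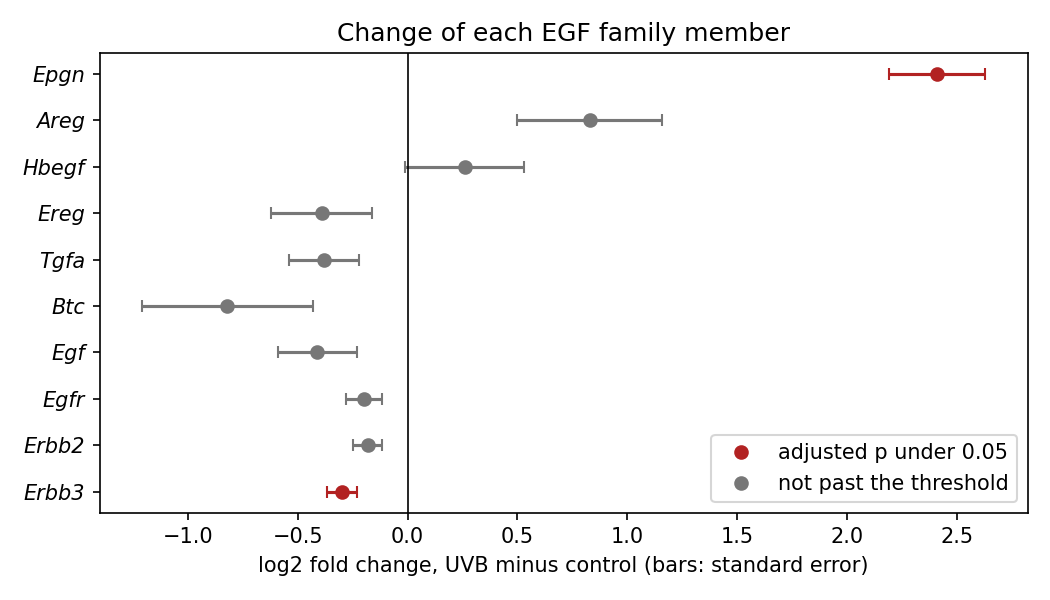
Log2 fold change (UVB minus control) of each of the 10 transcripts with its standard error, from the fit across all 13709 genes; red points passed an adjusted p of 0.05. Epgn at 2.41 stands far to the right, and the 3 receptors lie between -0.30 and -0.18 with the narrowest errors.

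Some markers of several cell types passed the threshold. Their counts stand beside 6.30% of all genes tested that passed as higher and 6.74% as lower. Of the Schwann cell markers, cells in which ERBB3 is the known neuregulin receptor, 2 of 6 fell and none rose, and their summed level was 105 to 119.7 TPM in controls and 75.6 to 82.9 TPM after UVB. Of the melanocyte markers 2 of 4 tested fell (summed 70.8 to 130.2 TPM in controls, 54.2 to 63.7 TPM after UVB), and of the meibocyte markers 2 of 8 fell. Of the stressed keratinocyte markers 3 of 4 tested rose, with sums of 2370 to 2958 TPM in controls and 2628 to 4250 TPM after UVB, and of the basal keratinocyte markers 2 of 5 tested rose (8056 to 10278 TPM and 10521 to 11615 TPM). In the basal list just 2 of the 5 lay above 0, and the median log2 fold change was -0.021. Calls were higher for 3 of 7 macrophage, 2 of 4 endothelial, 2 of 3 neutrophil, 1 of 5 mast cell and 1 of 3 T cell markers, mixed for fibroblasts (3 higher and 1 lower of 6), lower for 1 of 6 suprabasal keratinocyte markers, and 0 of 3 for duct and 0 of 5 for skeletal muscle markers in edgeR. At an unadjusted p under 0.05 those last lists held 1 and 0 genes, and DESeq2 called 1 and 0. Among the T cell markers 1 of 3 tested lay above 0, and the median log2 fold change of that list was -0.27. The suprabasal list went the other way from its 1 call, with 4 of 6 above 0 and a median of 0.068. Its sums were 4784 to 5713 TPM in controls and 4918 to 7504 TPM after UVB, and DESeq2 called 3 of the 6. None of the markers analysed was at 0 in every library. Near the floor, at under 1 TPM in every library, were Mmp8 (neutrophil), Ms4a2 and Fcer1a (mast cell) and Cd3d (T cell). Their part in the results for Epgn and Erbb3 was not tested.

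Compared per transcript length, the order of the 10 levels was led by the receptors. In controls Erbb2 stood first at 83.0 TPM, followed by Erbb3 at 55.2, Tgfa at 37.0, Egfr at 34.9, Ereg at 11.7, Hbegf at 7.11, Areg at 3.18, Btc at 1.81, Egf at 1.25 and Epgn at 1.02 TPM (means of 4 libraries). The ranges of neighbours in this order overlapped for Tgfa and Egfr, for Areg and Btc, and for Egf and Epgn. Within single control libraries, Areg was above Btc in 4 of 4, Egf above Epgn in 3 of 4 and Tgfa above Egfr in 2 of 4. After UVB the order was Erbb2 at 73.3, Erbb3 at 44.9, Egfr at 30.4, Tgfa at 28.6, Ereg at 8.98, Hbegf at 8.65, Areg at 5.76, Epgn at 5.45, Btc at 0.977 and Egf at 0.933 TPM (means of 3 libraries). Epgn thus moved from the last place to the eighth, in a range that overlapped that of Areg and lay above that of Btc. Among UVB libraries the ranges also overlapped for Egfr and Tgfa, for Ereg and Hbegf, for Hbegf and Areg, and for Btc and Egf, although Hbegf was above Areg in 3 of 3 libraries.

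The 3 receptors stood in similar proportions to each other in both groups. Egfr made up 20.1% ± 1.49 of their summed TPM in controls (SD, n = 4) and 20.5% ± 0.165 after UVB (SD, n = 3), Erbb2 48.0% ± 2.34 and 49.3% ± 1.90, and Erbb3 31.9% ± 1.05 and 30.2% ± 2.01. Their summed level was 163, 172, 178 and 179 TPM in the controls and 148, 153 and 145 TPM in the UVB libraries, so the groups were apart for the sum.

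Tgfa held the largest share of the ligand pool in each of the 7 libraries. The 7 ligands summed to 74.6, 52.5, 65.0 and 60.2 TPM in the controls and to 63.9, 51.9 and 62.3 TPM in the UVB libraries, and these ranges overlapped. The share of Epgn in this pool was 1.62, 1.98, 1.17 and 1.78% in controls and 9.97, 8.82 and 8.67% after UVB, so it was higher in all 3 UVB libraries. Areg made up 5.02% ± 1.73 in controls (SD, n = 4) and 9.59% ± 2.92 after UVB (SD, n = 3), with each UVB library above each control, the nearest being 7.46% in control d and 7.61% in UVB c. On the CPM scale these shares overlapped, at 2.93% in control d and 2.91% in UVB b. The share of Tgfa was 61.7, 58.4, 61.6 and 52.2% in controls and 37.3, 59.2 and 50.2% after UVB, and here the groups overlapped, with UVB b among the controls. UVB a had the highest shares of Epgn, Areg and Hbegf (19.2%) and the lowest of Tgfa among the 7 libraries.

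**Figure D3:**
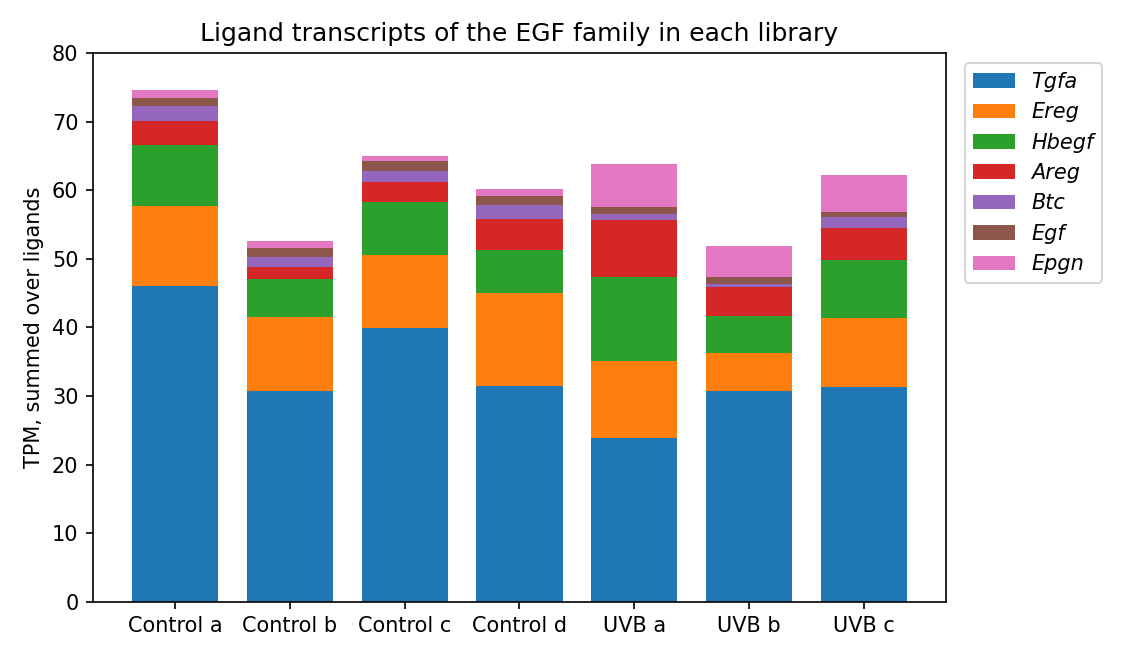
Summed TPM of the 7 ligand transcripts in each library, stacked by ligand. The Epgn segment is 0.76 to 1.21 TPM in controls and 4.58 to 6.37 TPM after UVB, while the total of a bar runs from 51.9 to 74.6 TPM with no separation of the groups.

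In the RefSeq gene order of chromosome 14, the protein-coding genes run Parm1, Btc, Areg, Ereg, Epgn, Mthfd2l, Cxcl2 and Cxcl1. The members of this ligand cluster did not share a value: log2 fold changes were -0.82 for Btc, 0.83 for Areg, -0.39 for Ereg and 2.41 for Epgn, of which that of Epgn passed. The gene next to Epgn on its other side, Mthfd2l, which encodes a mitochondrial folate enzyme, measured 2.15 ± 0.607 CPM in controls (SD, n = 4) and 2.27 ± 0.272 CPM after UVB (SD, n = 3), which is a log2 fold change of 0.079 (edgeR adjusted p = 0.864, SE 0.25). At the far end Parm1 had 0.39 (edgeR adjusted p = 0.135, SE 0.15). The chemokine gene Cxcl1 had 0.41 (edgeR adjusted p = 0.720, SE 0.65), with values from 1.35 to 9.85 CPM among the controls alone. Cxcl2, with 2 to 14 counts in a library, was too scarce to be tested. The fit tested each gene against 0, and differences between neighbours were not tested.

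**Figure D4:**
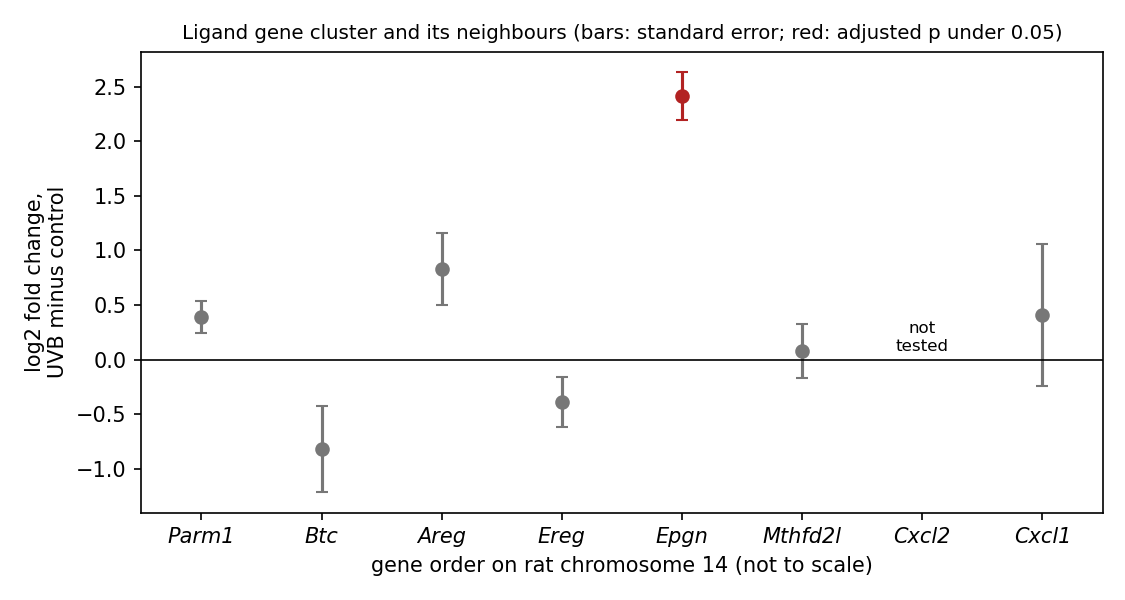
Log2 fold change (UVB minus control) with standard error for the genes around the ligand cluster, in their order on rat chromosome 14 and not to scale; red marks an adjusted p under 0.05. Epgn at 2.41 is the one red point, between Ereg at -0.39 and Mthfd2l at 0.079.

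Other parts of the pathway were read from lists of genes by role. The remaining receptor of the family, Erbb4, had 1 to 10 counts in a library and was too scarce to be tested. The neuregulins are ligands of ERBB3, ERBB4 or both. Of these, Nrg1 (NCBI gene 112400) measured 2.57, 2.10, 2.10 and 3.42 CPM in the controls. In the UVB libraries Nrg1 measured 5.78, 4.53 and 7.20 CPM. Each UVB library was above each control. It rose from 2.55 CPM (n = 4, SD 0.621) to 5.84 CPM (n = 3, SD 1.34), which is a log2 fold change of 1.20 (edgeR adjusted p = 0.0122, SE 0.23), while Erbb3, the receptor for its product, fell. Nrg2 had a log2 fold change of 0.68 (edgeR adjusted p = 0.133, SE 0.27) and Nrg4 one of -0.056 (edgeR adjusted p = 0.833, SE 0.15), and neither passed. Nrg3 was listed but not analysed.

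Of the 12 genes for ligand shedding and trafficking 0 passed in edgeR, where 6.30% of all genes rose and 6.74% fell. The list median log2 fold change was 0.091, and 4 of the 12 genes had an unadjusted p under 0.05. DESeq2 called 2 of them (Adam15 and Bace2), limma-voom 0, and limma-voom with quality weights 1 (Bace2). Adam17, which encodes the main sheddase of Areg, Ereg, Hbegf and Tgfa, measured 82.0 ± 5.12 CPM in controls (SD, n = 4) and 80.4 ± 6.53 CPM after UVB (SD, n = 3), which is a log2 fold change of -0.028 (edgeR adjusted p = 0.837, SE 0.075) whose sign changed without control d and without UVB b. Adam10, the sheddase of Egf and Btc, had 0.12 (edgeR adjusted p = 0.240, SE 0.062).

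Of 17 genes tested from the list of feedback inhibitors, 3 rose and 2 fell, beside 6.30% and 6.74% of all genes. The list was drawn up for restraint of the receptors or of the MAP kinases downstream, and the role of each gene was not tested. The list median was -0.027. The risers act on the RAS-MAPK cascade. Spry4, a Sprouty protein gene, measured 7.75, 6.67, 5.93 and 5.51 CPM in the controls and 13.2, 11.7 and 11.6 CPM in the UVB libraries, a log2 fold change of 0.91 (edgeR adjusted p = 0.00596, SE 0.14). Dusp6, which encodes an ERK phosphatase, measured 17.2, 12.8, 13.8 and 10.9 CPM in controls and 28.8, 20.8 and 26.8 CPM after UVB, a log2 fold change of 0.90 (edgeR adjusted p = 0.0105, SE 0.16). The counts of Dusp6 were not whole in any library, so its level is uncertain. Dusp4, another MAP kinase phosphatase gene, had 0.58 (edgeR adjusted p = 0.0123, SE 0.11). For each of these genes every UVB library lay above every control. Related genes of the list went the other way without a call. Dusp5 had -0.35 (edgeR adjusted p = 0.0665, SE 0.11), with every UVB library below every control. Spry1 had -0.12 (edgeR adjusted p = 0.336, SE 0.077), with overlapping groups.

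Both genes that fell encode membrane proteins of the LRIG group. Lrig1, whose product promotes degradation of ERBB receptors and marks epithelial stem cells in skin, measured 113, 136, 124 and 116 CPM in the controls and 97.8, 81.1 and 83.9 CPM in the UVB libraries. Its groups did not overlap, and its log2 fold change was -0.48 (edgeR adjusted p = 0.0107, SE 0.089). Lrig3 fell by 0.31 on the log2 scale (edgeR adjusted p = 0.0254, SE 0.072). Lrig2, also of this group, did not fall, at 0.073 (edgeR adjusted p = 0.656, SE 0.096) with overlapping groups. Errfi1, which encodes the EGFR inhibitor MIG6, had -0.61 (edgeR adjusted p = 0.138, SE 0.24) with overlapping groups, and Spry2 had 0.45 (edgeR adjusted p = 0.0654, SE 0.14). Neither passed, although both did under DESeq2 (adjusted p = 0.0274 and 0.0272).

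The adaptors and the RAS-MAPK relay had 1 gene that rose and 2 that fell in edgeR among 23 tested, beside 6.30% and 6.74% of all genes, and the list median was -0.053. An unadjusted p under 0.05 was found for 9 of the 23. DESeq2 called 7 of them, where it called 2451 genes in all, and limma-voom 3. Gab2, an adaptor gene, fell by 0.62 on the log2 scale (edgeR adjusted p = 0.00786, SE 0.10), from 42.0 CPM (n = 4, SD 1.66) to 27.3 CPM (n = 3, SD 4.48). Mapk3, which encodes ERK1, fell by 0.27 (edgeR adjusted p = 0.0214, SE 0.061), and its counts were not whole in any library. Akt1, which encodes a kinase of the PI3K branch, rose by 0.23 (edgeR adjusted p = 0.0240, SE 0.054). Mapk3 and Akt1 each lost the call in 4 of the 7 fits that omitted a library, at adjusted p-values up to 0.0646 and 0.0730.

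Genes known to respond to EGFR and MAPK activity passed in 8 of 21 tested cases (38.1%), of which 7 rose and 1 fell, with a list median of 0.46. Mmp9, which encodes a gelatinase, had 4, 8, 10 and 7 counts in the controls and 36, 34 and 85 in the UVB libraries. Mmp9 rose from 0.301 CPM (n = 4, SD 0.0821) to 2.10 CPM (n = 3, SD 1.04), which is a log2 fold change of 2.77 (edgeR adjusted p = 0.00498, SE 0.40), and by 0.85 on the log2(TPM + 1) scale without a filter (limma adjusted p = 0.0227). Etv4, which encodes an ETS factor downstream of MAPK, rose by 0.68 (edgeR adjusted p = 0.00728, SE 0.11). Plaur, Fosl1, Etv5 and Ccnd1 also rose, at 1.10, 0.84, 0.55 and 0.37 on the log2 scale, and the counts of Fosl1 were not whole in any library. Egr2, which encodes an early response factor, fell by 0.65 (edgeR adjusted p = 0.00453, SE 0.091), and the related Egr1 had -0.71 (edgeR adjusted p = 0.320, SE 0.43) without a call. Of the 21 genes, 16 lay above 0. Other early response genes had no call: Fos at 0.51, Jun at -0.24, Egr3 at 0.037, Ier3 at -0.012 and Myc at 0.045. Has2 at 1.19 and Mmp3 at 0.93 had none either. Several of these genes are also expressed in macrophages and fibroblasts, whose marker counts are given above and whose part was not tested. These counts are a description beside the 6.30% of all genes that rose and the 6.74% that fell, since the list was drawn up with earlier results known.

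**Figure D5:**
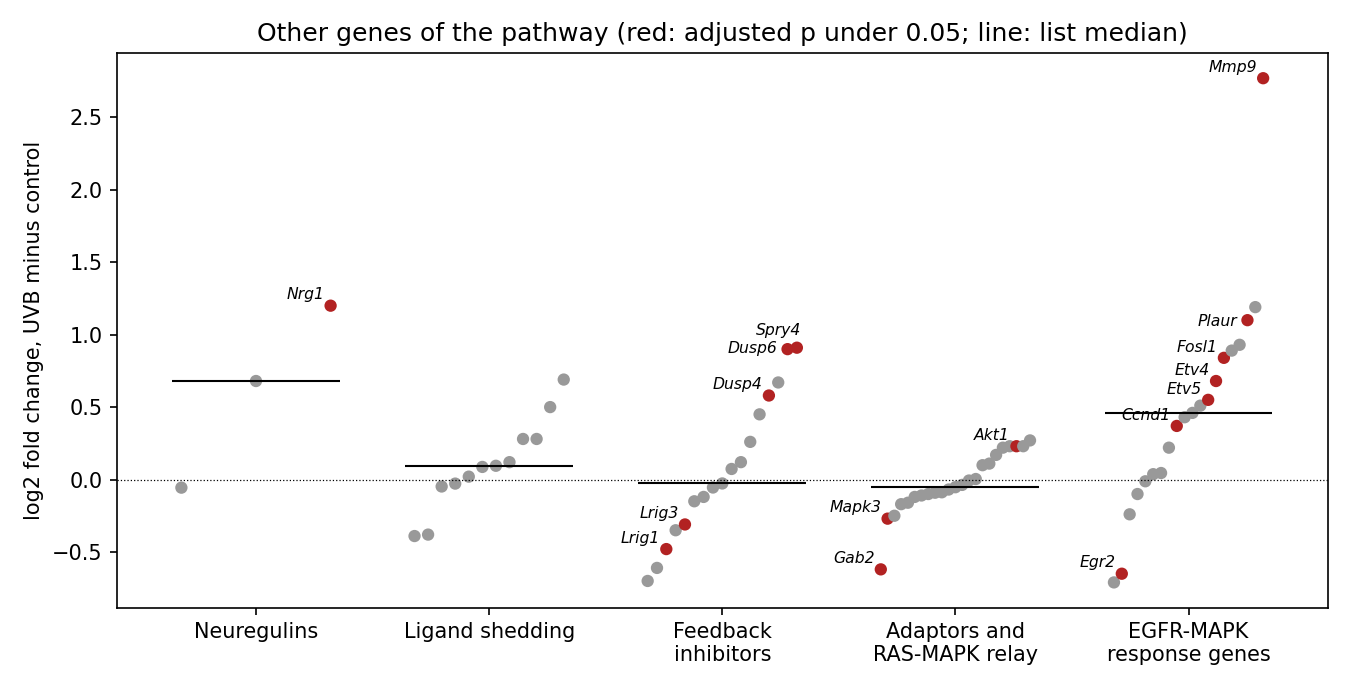
Log2 fold change (UVB minus control) of each tested gene in the 5 other lists of the pathway, ordered within a list; red points passed an adjusted p of 0.05 and carry their symbol, and the line is the list median. A gene of the response list is not drawn. Red points lie on both sides of 0 among feedback inhibitors, none is seen for ligand shedding, and the red points drawn among response genes lie above 0 except Egr2.

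The pattern over libraries was compared with 11344 other genes by the root mean square difference of log2 CPM, each gene centred on its control mean, over the 7 libraries. Nearest to Epgn were Fscn1, which encodes the actin-bundling protein fascin (difference 0.211), Tmprss11a, an epithelial serine protease gene (0.364), and Galnt6, which encodes an enzyme of mucin-type glycosylation (0.376). Fscn1 rose from 11.6 CPM (n = 4, SD 2.83) to 52.6 CPM (n = 3, SD 2.30), which is a log2 fold change of 2.19 (edgeR adjusted p = 0.000630, SE 0.15). Nearest to Erbb3 were the kinase gene Hipk1 (0.0313), the microtubule linker gene Clip2 (0.0351) and the fatty acid transporter gene Slc27a1 (0.0378), whose log2 fold changes were -0.27, -0.32 and -0.28. The measure selects genes of like size of change, so their own changes add nothing independent.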

How the data were processed

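RNA sequencing of 4 control and 3 UVB meibomian gland libraries was used as 2 deposited tables. The authors deposited expected counts, of which 12.5% were not whole, and TPM values, whose library sums were 82.0% to 84.1% of a full TPM total. FastQC, Trimmomatic, DRAGEN and Picard and the build rn7 are named in the submitters' processing notes; the counter, annotation and strand handling are not given in the sources used here. Unquoted commas in 2280 gene names moved cells, so each row was split from its right end, and 5 rows lacking a value were left out.

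Expected counts were rounded and tested in edgeR 4.0.16 (R 4.3.3; quasi-likelihood, robust, TMM, filterByExpr), two-sided, with Benjamini-Hochberg adjustment over 13709 genes. SE was derived as |log2 fold change| over the root of F. CPM are TMM-normalised, and log2 CPM used a prior count of 2. Counts were simulated from a negative binomial model with 2-fold changes and dispersions that edgeR estimated from these libraries. On these counts edgeR recovered 74.4% of 199 changed genes, with 5.13% of 156 calls false. The simulation shares the model of edgeR, so it does not measure the false share in the real libraries. As alternatives served DESeq2 1.42.0, voom in limma 3.58.1 (plain or quality-weighted), other scalings and filters, limma on log2(TPM + 1) or log2(TPM + 0.1), and omission of each library.

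The members, the 5 other pathway lists, the 14 marker lists and the motifs were chosen with earlier results of these data known, and the TATA letters after the sequences were seen. Of each list, called genes were named up to the 4 with the smallest p, with Errfi1, Dusp6, Spry2 and Adam17 whatever their result. Added after their values were seen were Lrig2, Lrig3, Spry1, Dusp5, Plaur, Fosl1, Etv5, Ccnd1, Egr1, Nrg2, Nrg4, Adam10, Adam15 and Bace2. So were Fos, Jun, Egr3, Ier3, Myc, Has2 and Mmp3, the neighbours of the ligand cluster and the promoters printed. Likeness used genes with a mean count of at least 50. Of 84 listed pathway genes, 78 were analysed and 76 tested. RefSeq coordinates are those of GRCr8 and were not joined to the counts. A response gene counted in its list is not reported here by name.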

Additional observations from a re-analysis of the deposited data

Results flagged for a closer look

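Among 38 values compared within the 4 controls, 5 held an outlying library; about 1 in 20, or 1.90, would be so by chance. Groups of 3 were not examined in this way. For Egfr, control a stood at 75.5 CPM and its fellow controls at 91.2 to 94.3 CPM (gap 0.833 of the range), and this is the library whose omission brought Egfr past the threshold. Fscn1 measured 15.8 CPM in control a against 9.69 to 10.5 CPM (gap 0.875). Control b was low for Spry2, at 13.8 CPM beside 19.4 to 20.5 CPM (gap 0.834). In control d, Mapk3 measured 152 CPM against 144 to 145 CPM (gap 0.940) and Adam17 89.6 CPM against 78.5 to 80.2 CPM (gap 0.851). No cause of these gaps was tested.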

How the results depend on the processing

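No paired analysis was possible because no column name holds a replicate number found in the labels. Epgn passed in all 19 alternatives and Erbb3 in 15 of 19. Without each library in turn, the genes past the threshold numbered 851 to 1898 (1787 with all libraries), with 421 to 927 higher and 430 to 971 lower, the members past it 1 to 3, and the pathway list genes 11 to 21 (17 with all libraries). Without control c 851 genes passed, and without control b, control d, UVB b and UVB c 1097, 943, 1047 and 1168. The lowest pathway count, 11, came without UVB c. DESeq2 called 28 pathway list genes, and log2(TPM + 1) without a filter called 571 genes lower; the cause was not tested. The log2 fold change of Hbegf ran from -0.053 to 0.52 without single libraries, that of Adam17 from -0.064 to 0.042, that of Egfr from -0.27 to -0.17 and that of Erbb3 from -0.33 to -0.25. Of the 189 alternative fits of members, 183 kept direction and side of the threshold, and of 282 for the 15 named pathway genes, 270 did. In CPM, which is not corrected for length, Tgfa made up 80.8% of the ligands in controls and 72.0% after UVB, and Epgn 0.909% and 5.49%. Depth limits Btc, at 6 to 25 counts in a library, Epgn in controls, at 22 to 27, and Mmp9 in controls, at 4 to 10.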
